A study of Mus musculus with 21 samples.

Results

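Tle1, Tle2, Tle3 and Tle4 encode the full-length mouse Groucho/TLE corepressors. The data around them came from 6 deposited NuRD subunit peak lists and 4 accessibility lists, each of regions more open in 1 of 2 genotypes. A peak or region was taken as a member when its summit lay within the RefSeq gene body or within 200 kb of it. This gave 279 members of 92305 entries in all: 274 of 91480 ChIP peaks and 5 of 825 accessibility regions. Members were chosen by the summit positions in these lists, and the 4 genes were proposed with the regions near them already known, so no count below was tested.

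The subunit peaks came from ChIP-seq of the ganglionic eminences (labelled basal ganglia) of CD1 embryos at E13.5, with 1 library each for CHD4, HDAC1, HDAC2, MBD3, RBBP4 and RBBP7. The labels give no genotype for these embryos. The 6 libraries shared 3 inputs: input 1 served HDAC1 as well as HDAC2, input 2 served MBD3 as well as CHD4, and input 3 served both RBBP proteins, so some lists are not independent. Accessibility was measured by ATAC-seq at E12.5 in Dlx1/2KO and WT embryos of the same strain, 3 per genotype. Each embryo gave FTneg cells, from the subventricular and mantle zones, and FTpos cells, from the ventricular zone. The deposited lists combine the embryos of a genotype and hold either KO-higher or WT-higher regions of 1 fraction. Which genotype is higher in a list was taken from the list names and from the descriptions of the samples that cite them, and every direction of accessibility below rests on that reading. No list has a replicate, and the read depth behind each is unknown. Both assays used mixed cells, so a site used by few cells and a weakly bound or weakly opened site in many cells cannot be told apart. The lists attached to the samples labelled CHD4, HDAC1 and HDAC2 carry the names HDAC1, HDAC2 and CHD4 in that order. They are called here by the sample label, as CHD4-labelled, HDAC1-labelled and HDAC2-labelled, and may belong to another of these 3 proteins.

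Groucho/TLE proteins do not bind DNA themselves. They are brought to genes by transcription factors with short peptide motifs, such as the HES proteins of the Notch pathway, the TCF/LEF proteins of Wnt signalling and many homeodomain factors, and they repress in part through histone deacetylases. In the embryonic neural tube they are known as partners of patterning homeodomain proteins. NuRD is a separate complex that joins the remodelling ATPase CHD4 to the deacetylases HDAC1 and HDAC2, with MBD3 and the histone-binding proteins RBBP4 and RBBP7. DLX1 and DLX2 are homeodomain factors that drive the GABAergic lineage of the ganglionic eminences.

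The 4 genes lie on separate chromosomes of mm10 (RefSeq coordinates of GRCm38.p6). Tle1 (gene ID 21885) spans chr4:72109945-72200989 on the minus strand, and Tle4 (21888) spans chr19:14448072-14598183 on the minus strand. Tle3 (21887) spans chr9:61372326-61418497 and Tle2 (21886) spans chr10:81574739-81592581, both on the plus strand. Tle1, Tle3 and Tle4 had no other curated protein-coding gene within 200 kb. The Tle2 window held 17 others, among them the family genes Tle5 and Tle6.

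The promoters are shown first because the 4 genes differed there in the lists they carried: 5 of the 6 lists had a peak on the promoters of Tle1 and Tle4, 3 on that of Tle3 and 1 on that of Tle2. RefSeq promoters of GRCm38.p6 were listed for all 4 genes, each from 250 bases before to 50 after an annotated start, and are given 5′ to 3′ on the strand of the gene. They lie at chr4:72200844-72201143 (Tle1, minus), chr10:81575037-81575336 (Tle2, plus), chr9:61372116-61372415 (Tle3, plus) and chr19:14598134-14598433 (Tle4, minus, the upstream one of 2 listed). Capitals mark matches on either strand to CACNAG, the N-box that HES proteins are known to bind, and to CACGTG, the E-box.
Tle1: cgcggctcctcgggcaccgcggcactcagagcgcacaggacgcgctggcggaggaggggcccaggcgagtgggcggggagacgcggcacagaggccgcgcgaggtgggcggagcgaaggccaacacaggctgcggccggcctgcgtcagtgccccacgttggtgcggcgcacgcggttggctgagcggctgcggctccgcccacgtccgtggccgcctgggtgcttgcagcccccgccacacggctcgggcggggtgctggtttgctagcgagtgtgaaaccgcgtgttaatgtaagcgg
Tle2: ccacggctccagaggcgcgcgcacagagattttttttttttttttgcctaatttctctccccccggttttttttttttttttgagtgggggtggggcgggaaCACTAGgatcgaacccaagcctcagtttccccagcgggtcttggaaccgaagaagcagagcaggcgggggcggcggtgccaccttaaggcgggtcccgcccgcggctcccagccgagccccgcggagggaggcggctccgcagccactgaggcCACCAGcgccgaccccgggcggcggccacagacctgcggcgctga
Tle3: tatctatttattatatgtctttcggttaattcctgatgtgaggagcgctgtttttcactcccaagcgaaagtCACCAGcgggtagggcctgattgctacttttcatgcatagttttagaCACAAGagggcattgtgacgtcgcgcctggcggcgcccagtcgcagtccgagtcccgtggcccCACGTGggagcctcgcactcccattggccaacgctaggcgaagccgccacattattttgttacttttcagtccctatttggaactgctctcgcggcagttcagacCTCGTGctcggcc
Tle4: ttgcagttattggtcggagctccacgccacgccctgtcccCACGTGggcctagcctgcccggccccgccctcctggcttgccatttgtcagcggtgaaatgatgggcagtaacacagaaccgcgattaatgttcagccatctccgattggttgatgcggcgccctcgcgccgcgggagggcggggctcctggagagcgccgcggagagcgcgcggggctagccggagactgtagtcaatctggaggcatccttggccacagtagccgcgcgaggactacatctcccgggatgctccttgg
The N-box letters occurred 2 times in the Tle2 window and 3 times in the Tle3 window, and were not in those of Tle1 and Tle4. They were found in 41.8% of the 20418 listed promoters. CACGTG, chosen after the sequences were seen, occurred 1 time each in the Tle3 and Tle4 windows and in 8.05% of all. The homeodomain core TAATTA (4.45% of all) and the RBPJ core TGGGAA (24.2% of all), searched on both strands, were in none of these 4 windows. None of the printed matches overlapped another. The Tle1 promoter had a GC content of 73.7% and 40 CpG dinucleotides, Tle4 65.0% and 28, Tle2 64.7% and 28, and Tle3 53.7% and 21, against medians of 57% and 14 over all listed promoters.

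**Figure D1:**
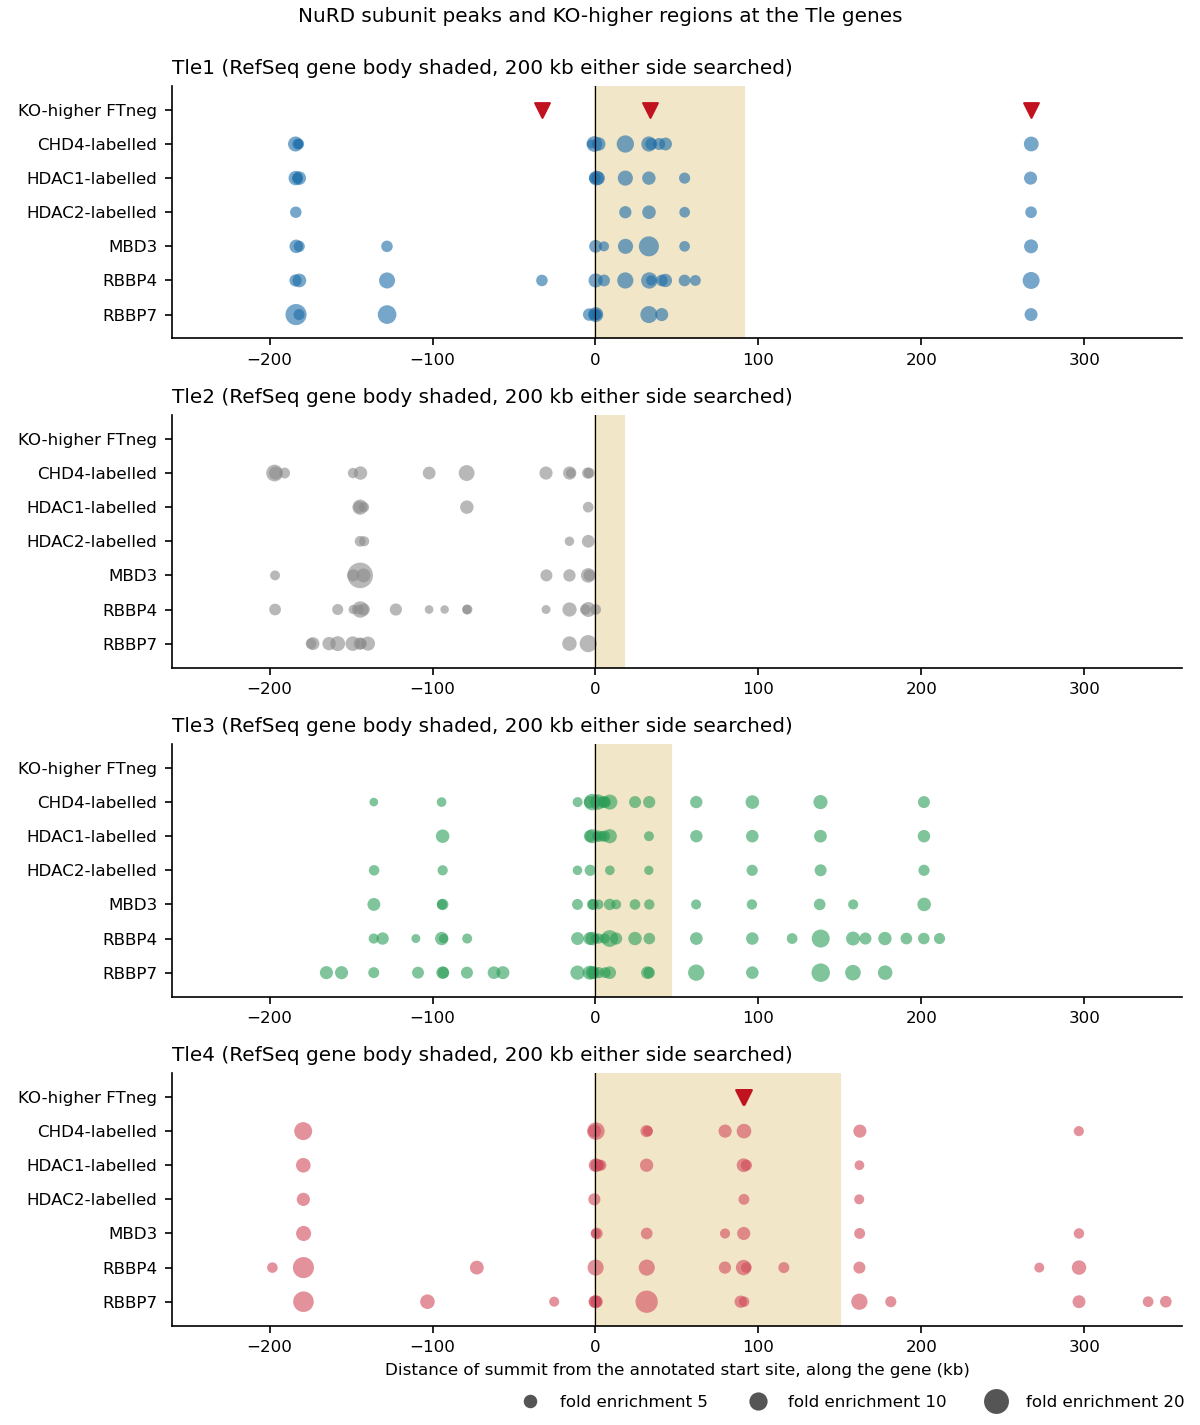
Position of every member by list (rows) along each gene, as distance of the summit from the annotated start site in kb, with the RefSeq gene body shaded. Circle area scales with the authors' fold enrichment and red triangles are KO-higher FTneg regions: 3 at Tle1, 2 at Tle4 (91.1 and 90.6 kb, drawn over each other) and none at Tle2 or Tle3.

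Chromatin near Tle1 and Tle4 was more open in Dlx1/2KO than in WT FTneg cells, and no region near the 4 genes was called in the opposite direction. The KO-higher FTneg list had 3 regions near Tle1, 2 near Tle4 and none near Tle2 or Tle3. The KO-higher FTpos, WT-higher FTneg and WT-higher FTpos lists had none near any of the 4. Over 20953 curated protein-coding genes, 9.52% had at least 1 KO-higher FTneg region in the same window, 1.26% at least 2 and 0.325% at least 3. The 2 Tle4 regions were 101 bp apart, and such neighbouring calls count separately in these shares. Tle1 and Tle4 each had a region inside the gene body, as did 1.39% of all genes. Their bodies are 91.0 and 150 kb long, and this share was not matched for gene length. The shares with a region of the other lists were 0.358% for KO-higher FTpos, 0.501% for WT-higher FTneg and 0.372% for WT-higher FTpos, so their absence at 4 genes is near the background. The regions near Tle1 and Tle4 have no −log10 q in their list, and only an unadjusted −log10 p is given for them. The embryos were combined before the lists were deposited, and these counts were not tested.

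The region of largest area lay 33.1 kb upstream of the Tle1 start (chr4:72233696-72234265, 570 bp). Its area, the sum of −log10 p over the region by the authors' caller, was 2168, rank 9 of 727 in the list and above 98.8% of it. This region carried a peak of RBBP4 and of no other list, with a fold enrichment of 5.13 at a summit 189 bp from the accessibility summit. The next nearest summit of another list was 29190 bp away (RBBP7). Of all KO-higher FTneg regions, 12.2% had an RBBP4 peak and no other.

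The other regions at Tle1 carried all 6 subunit lists. One lay inside the gene, 33.4 kb downstream of the start (chr4:72167306-72168278, 973 bp), with an area of 828, rank 240 of 727. Fold enrichment there was 15.4 for MBD3 (above 99.5% of that list), 11.1 for RBBP7, 10.3 for RBBP4, 8.89 in the CHD4-labelled list, 7.07 in the HDAC2-labelled list and 6.90 in the HDAC1-labelled list. All 6 peaks were wider than the region and had summits within it, from 327 to 592 bp from the accessibility summit. Whether the region lies in an intron or an exon could not be read from the annotation used here.

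The last Tle1 region lay 268 kb downstream of the start and 177 kb past the far end of the gene (chr4:71933183-71934224, 1042 bp). Its area was 1157, rank 109 of 727. Fold enrichment was 11.1 for RBBP4 (above 98.6% of the list), 8.42 in the CHD4-labelled list, 7.49 for MBD3, 6.61 in the HDAC1-labelled list, 6.47 for RBBP7 and 5.23 in the HDAC2-labelled list. The subunit summits lay 125 to 556 bp from the accessibility summit. This was the accessibility region nearest to the edge of a window, and the first one outside lay 880 kb from Tle1 (area 703).

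Both Tle4 regions lay inside the gene, about 91 kb from the start, and were 101 bp apart. The larger (chr19:14506326-14507420, 1095 bp) had an area of 885, rank 207 of 727, and the smaller (chr19:14507522-14508126, 605 bp) had 560, rank 586. The larger overlapped a peak of all 6 lists, with fold enrichments of 9.17 for RBBP4, 8.23 in the CHD4-labelled list, 7.28 in the HDAC1-labelled list, 6.59 for MBD3, 4.56 in the HDAC2-labelled list and 4.22 for RBBP7. The RBBP7 value was above 3.48% of its list, whereas RBBP4 was above 95.7%. The smaller region overlapped the edges of the same peaks, except that of the HDAC2-labelled list, and held no subunit summit. The 2 calls therefore share 1 site of subunit peaks.

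Each of the 5 regions overlapped at least 1 subunit peak, and 3 overlapped all 6 lists. Over the 727 KO-higher FTneg regions, 71.3% had a peak of at least 1 subunit and 13.1% of all 6. RBBP4 was the list present at all 5, against 66.0% of the whole accessibility list. With the 2 neighbouring Tle4 regions taken as 1 site, these are 4 sites.

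**Figure D2:**
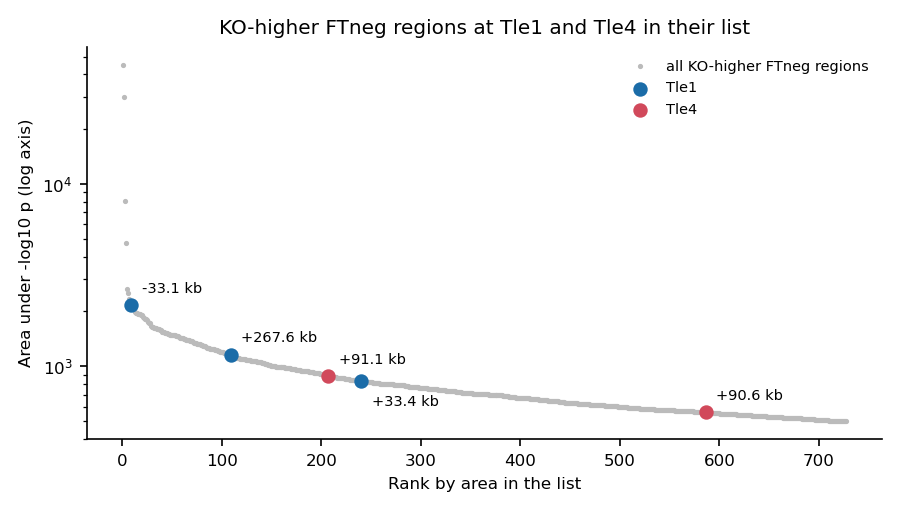
Area under −log10 p (log axis) of the 727 KO-higher FTneg regions against rank, with the regions at Tle1 (blue) and Tle4 (red) labelled by distance from the start site. The Tle1 region at 33.1 kb upstream is at rank 9, and the other 4 range from rank 109 to rank 586.

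Subunit peaks were most numerous at Tle3, which had 103, followed by Tle1 with 60, Tle4 with 56 and Tle2 with 55. The last 3 counts are close, and with 1 library per list their order was not tested. Of all genes, 0.334% had at least as many peaks in their window as Tle3, 5.94% as many as Tle1, 7.74% as many as Tle4 and 8.19% as many as Tle2. The windows differ in length, at 550 kb for Tle4, 491 kb for Tle1, 446 kb for Tle3 and 418 kb for Tle2. Per 100 kb, 65.0% of genes had fewer CHD4-labelled peaks than Tle4, and 67.4% had fewer RBBP4 peaks. For its other lists this share ran from 84.5% (HDAC2-labelled) to 98.1% (RBBP7).

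By list, the Tle3 window held 26 RBBP4 peaks, 23 of RBBP7, 16 each of the CHD4-labelled list and MBD3, 13 of the HDAC1-labelled list and 9 of the HDAC2-labelled list. Per 100 kb this was 5.83 RBBP4 peaks against a median of 1.49 over all genes, and 5.15 RBBP7 peaks against 0.481. Of all genes, 99.96% had fewer RBBP7 peaks per 100 kb than Tle3, and 99.5% had fewer MBD3 peaks. Tle1 had 14 RBBP4 peaks, 12 of the CHD4-labelled list, 10 each of RBBP7 and the HDAC1-labelled list, 9 of MBD3 and 5 of the HDAC2-labelled list. Tle4 was the gene where RBBP7 peaks, at 14, outnumbered those of RBBP4, at 12. Its other lists held 9 CHD4-labelled, 9 HDAC1-labelled, 8 MBD3 and 4 HDAC2-labelled peaks. Tle2 had 16 RBBP4, 12 CHD4-labelled, 10 RBBP7, 8 MBD3, 5 HDAC1-labelled and 4 HDAC2-labelled peaks. A peak of every list in the window was found at each of the 4 genes, and at 54.3% of all genes. Taken list by list, 89.1% of genes had at least 1 RBBP4 peak, 85.8% a CHD4-labelled peak, 80.0% an MBD3 peak, 79.7% an HDAC1-labelled peak, 76.3% an RBBP7 peak and 62.1% an HDAC2-labelled peak in the window.

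**Figure D3:**
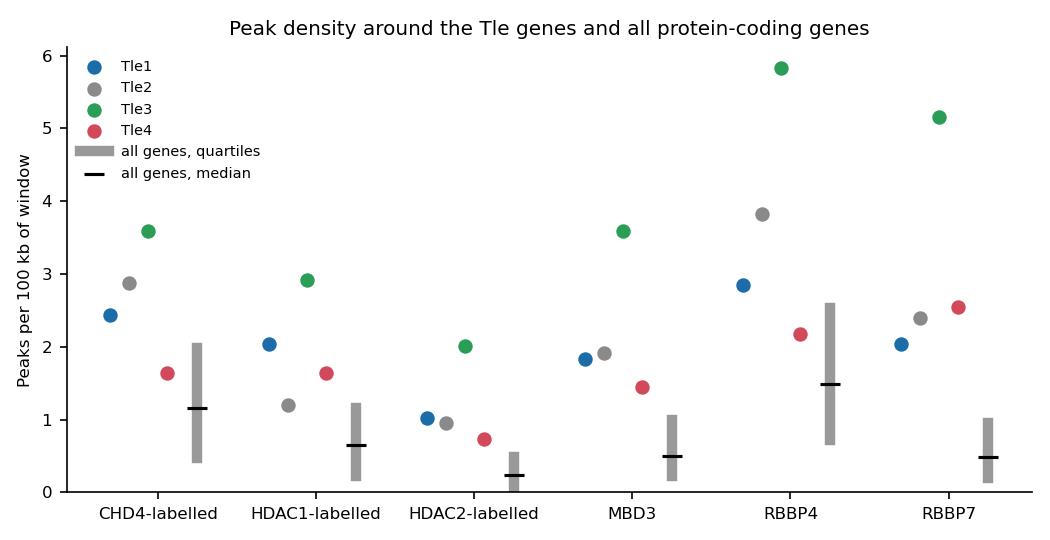
Peaks per 100 kb of window for each list at Tle1, Tle2, Tle3 and Tle4 (coloured points), beside the median (black dash) and quartiles (grey bar) over 20953 protein-coding genes. Tle3 is the highest of the 4 in every list, from 2.02 in the HDAC2-labelled list to 5.83 for RBBP4.

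Taken over the 4 genes together, peaks of the members were somewhat stronger than those of their lists. The median fold enrichment was 6.31 at the Tle genes against 5.64 over the whole CHD4-labelled list, 6.05 against 5.22 for the HDAC1-labelled list, 4.67 against 4.21 for the HDAC2-labelled list and 5.06 against 4.61 for MBD3. It was 5.55 against 4.85 for RBBP4 and 6.39 against 6.20 for RBBP7. The genes differed, with medians below that of the list for RBBP4 at Tle2 (4.31), MBD3 at Tle3 (4.39) and RBBP7 at Tle4 (5.82). At Tle3 the medians of RBBP7 (6.16) and the CHD4-labelled list (5.634 against 5.636) were just below. All other medians by gene were above those of their lists. Of the members, 10 of 37 HDAC1-labelled peaks, 15 of 68 RBBP4 peaks and 9 of 41 MBD3 peaks were in the top 10% of their list. The counts were 9 of 57 for RBBP7, 3 of 22 in the HDAC2-labelled list and 5 of 49 in the CHD4-labelled list, shares of 15.8%, 13.6% and 10.2%. These medians describe the members and were not tested.

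The start sites of Tle1, Tle3 and Tle4 lay in wide stretches of subunit peaks. Overlapping peaks merged to 7.36 kb at Tle1 (chr4:72195198-72202557, 12 peaks of 5 lists), 7.03 kb at Tle3 (chr9:61368544-61375575, 19 peaks of 6 lists) and 4.92 kb at Tle4 (chr19:14594581-14599502, 13 peaks of 6 lists). Much of each width was covered by 1 CHD4-labelled peak, of 5741 bp at Tle1, 4870 bp at Tle3 and 3641 bp at Tle4. Of 9395 merged regions over a listed promoter, 0.298% were at least as wide as that of Tle1, 0.362% as that of Tle3 and 0.873% as that of Tle4. The Tle2 start had 1 RBBP4 peak of 291 bp (chr10:81575235-81575525, fold enrichment 4.44), and 98.9% of merged promoter regions were at least as wide.

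Within these stretches several summits lay close together near the starts of Tle1 and Tle4, and others lay farther off. On the Tle1 promoter the summits of MBD3 (fold enrichment 6.36), RBBP4 (7.70) and RBBP7 (8.71) lay 54, 78 and 150 bp downstream of the start, and that of the HDAC1-labelled list (8.31, above 97.0% of its list) 562 bp downstream. The CHD4-labelled peak on it was 5741 bp long, with its summit 1996 bp inside the gene. On the Tle4 promoter the HDAC1-labelled (7.11), RBBP4 (9.92), RBBP7 (6.60) and MBD3 (3.87) summits lay 58 to 121 bp downstream, and the CHD4-labelled summit (11.8, above 95.9% of its list) 247 bp downstream. At Tle3 the promoter itself was covered by parts of wide peaks. Of these, the RBBP4 peak (3.36, above 7.33% of its list) had its summit within the promoter, 171 bp upstream of the start. The highest CHD4-labelled peak of the stretch (10.4) had its summit 2014 bp upstream, and the highest HDAC1-labelled peak (7.70) 2051 bp upstream. Peaks of the HDAC2-labelled list did not overlap any of the promoters. The nearest at Tle4 had its summit 691 bp upstream, and that at Tle3 3218 bp upstream.

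Over 16783 genes with a listed promoter, 42.5% had a CHD4-labelled peak there, 45.0% an RBBP4 peak, 22.3% an HDAC1-labelled peak, 20.1% an MBD3 peak, 9.56% an RBBP7 peak and 7.47% an HDAC2-labelled peak. At least 5 lists were found at 6.49% of genes, among them Tle1 and Tle4, and 44.4% of genes had none. None of the 4 promoters overlapped an accessibility region. The share over all promoters was not counted. With 825 accessibility regions against 20418 listed promoters, this absence says little about these 4.

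Merged regions that held peaks of all 6 lists were a larger share of the merged regions at the Tle genes than over the series. Merging the 6 lists gave 82 regions in the 4 windows, of which 15 (18.3%) held all 6, against 3.93% of the 38820 merged regions of the series and 3.85% of those within 200 kb of any curated gene. Tle3 had 6 of them, Tle4 4, Tle1 3 and Tle2 2. Since any overlap joined peaks, a region of all 6 lists need not be 1 shared site. Its summits spanned 500 bp or less in 8 of the 15, within a range of 100 to 5505 bp. The regions at the Tle3 and Tle4 starts spanned 5505 and 3983 bp, and the promoters there overlapped 3 and 5 lists. Spans were not counted over the series. At least 1 such region was in the window of 26.0% of all genes, at least 2 of 6.46%, at least 3 of 1.8% and at least 4 of 0.525%. At least 6 were found at 0.0286%, which is 6 genes. These were Auts2 with 9, Gse1 with 8 and, with 6 each, Tle3, 1190005I06Rik, Gins2 and Gm27021. Windows of neighbouring genes can share regions, and how many separate loci these 6 genes make up was not counted. Regions of 5 lists made up another 9 of the 82 (11.0%, against 6.15% of the series). Regions of 1 list numbered 36 (43.9%, against 48.1%), of which 17 were RBBP4, 16 RBBP7 and 3 CHD4-labelled.

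**Figure D4:**
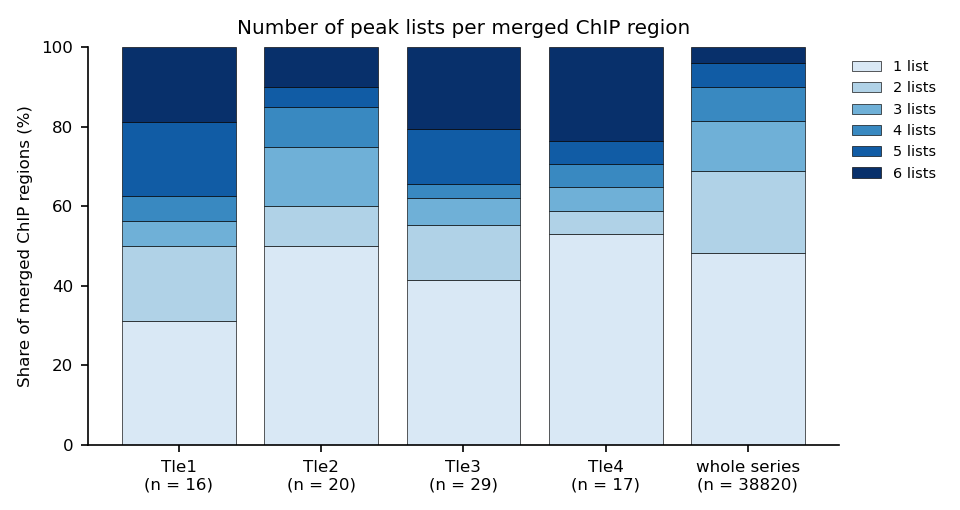
Share of merged ChIP regions (%) that held 1 to 6 peak lists, for each Tle gene and for the whole series, with the number of regions under each bar. The darkest part, all 6 lists, is 18.8% at Tle1, 10.0% at Tle2, 20.7% at Tle3 and 23.5% at Tle4, against 3.93% in the whole series.

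Of the 15 regions, 5 had their midpoint in the body of a Tle gene, 6 upstream and 4 downstream, and 9 were more than 50 kb from the start site. The one with the highest RBBP4 peak was 179 kb upstream of Tle4 (chr19:14776741-14778088). There the fold enrichments were 17.1 for RBBP4, 16.3 for RBBP7, 12.4 in the CHD4-labelled list, 8.70 for MBD3, 8.20 in the HDAC1-labelled list and 6.69 in the HDAC2-labelled list, each above at least 95.3% of its own list. The region did not overlap a KO-higher region. Tle1 had a region about as far upstream, at 184 kb (chr4:72383457-72385716), with 17.2 for RBBP7 (above 99.4% of the list) but 5.70 for RBBP4 (above 69.7%).

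At Tle3 the highest RBBP4 and RBBP7 peaks were in the region 138 kb downstream of the start (chr9:61509736-61511085), with fold enrichments of 12.47 and 13.1. The region 8.7 kb inside Tle3 (chr9:61380558-61381626) had its 6 summits within 100 bp of one another. RBBP4 reached 10.8 there and the CHD4-labelled list 8.73, whereas the HDAC2-labelled list was at 3.59, above 21.6% of its list. In the region 32.9 kb inside Tle3 the 6 values were above 6.49% (HDAC1-labelled) to 57.7% (RBBP4) of the peaks of their own lists. The lists differed more in the region 94 kb upstream of Tle3, where the HDAC1-labelled value (7.001) was above 89.6% of its list and the CHD4-labelled value (3.58) above 4.37%.

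KO-higher FTneg regions overlapped 3 of the 15 regions, at Tle1 (32.9 and 267 kb) and Tle4 (90.9 kb). Of the 1527 regions of all 6 lists in the series, 6.68% overlapped one. The 6 regions of all 6 lists at Tle3 and the 2 near Tle2 overlapped none. In the CHD4-labelled, HDAC1-labelled, MBD3 and RBBP4 lists the fold enrichments of the 3 lay within the range of the other 12, at 9.17 to 11.1 against 5.14 to 17.1 for RBBP4. In the HDAC2-labelled list the Tle1 region inside the gene, at 7.07, was above all of the other 12 (3.29 to 6.69). For RBBP7 the Tle4 region, at 4.22, was below all of them (5.06 to 17.2).

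**Figure D5:**
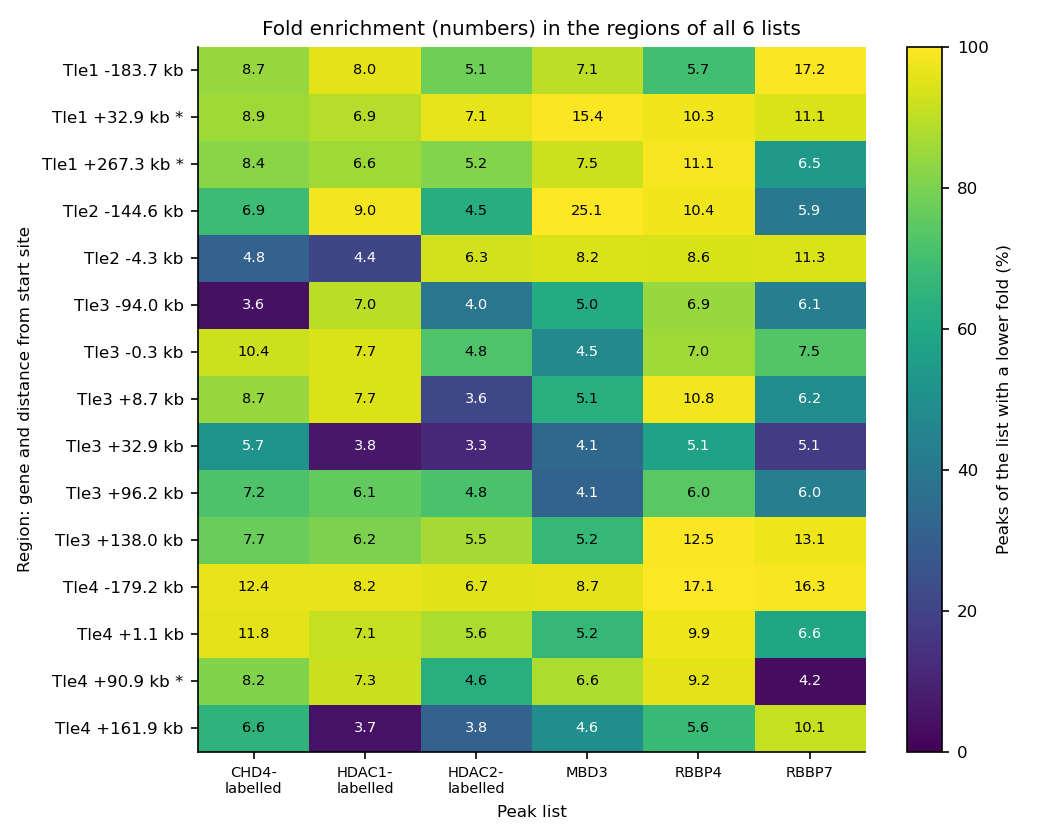
Fold enrichment (numbers) of the highest peak of each list in the 15 regions of all 6 lists, one row per region named by gene and distance from the start site in kb. Colour is the share of that list's peaks with a lower value (%), and an asterisk marks overlap with a KO-higher FTneg region. The row 179 kb upstream of Tle4 is above at least 95.3% of the list in all 6 columns.

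Strong peaks of fewer lists were also present inside Tle1 and Tle4. A region 18.3 kb inside Tle1 (chr4:72182058-72183064) lacked RBBP7 and held the highest CHD4-labelled (11.5) and HDAC1-labelled (8.79) peaks of that window, with 10.1 for RBBP4, 8.79 for MBD3 and 5.80 in the HDAC2-labelled list. A region 31.6 kb inside Tle4 (chr19:14565531-14567571) lacked the HDAC2-labelled list and held the highest RBBP7 peak of any Tle window, with a fold enrichment of 19.1, rank 41 of 14918. RBBP4 was at 9.94 there, the HDAC1-labelled list at 6.81, the CHD4-labelled list at 5.62 and MBD3 at 5.25. Neither region overlapped a KO-higher region.

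The subunits shared their places at the Tle genes more often than over their whole lists. All 41 MBD3 peaks overlapped an RBBP4 peak, against 92.3% of the MBD3 list, and 30 of the 41 (73.2%) overlapped an RBBP7 peak, against 41.9%. Of the 22 HDAC2-labelled peaks 21 overlapped MBD3 (95.5%, against 66.3%) and 19 overlapped the HDAC1-labelled list (86.4%, against 46.0%). Of the 49 CHD4-labelled peaks 31 overlapped RBBP7 (63.3%, against 26.7%). The RBBP7 peaks changed least with regard to RBBP4, with 40 of 57 overlapping one (70.2%, against 65.5%). These shares were not tested, and peaks of 1 locus are not independent. Wider peaks also overlap more readily at 1 bp. Median widths of members exceeded those of the list for MBD3 (634 against 456 bp), RBBP4 (587 against 532) and RBBP7 (481 against 427). So did those of the HDAC1-labelled (617 against 430) and HDAC2-labelled lists (572 against 412), whereas CHD4-labelled members were narrower (559 against 635). The part of width in the shares was not tested.

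The Tle2 window differed from the other 3 in what lay around the gene. Of its 55 peaks 8 were nearest to Tle2 and 1 lay in the gene body, while every peak in the other windows was nearest to the Tle gene. The Tle2 window held 17 other curated genes and the other 3 windows none, so nearness was largely set by gene positions. Its highest MBD3 peak (fold enrichment 25.1, rank 8 of 11721) lay within Nfic, a nuclear factor I gene, 145 kb upstream of Tle2, in a region of all 6 lists (chr10:81429683-81431790). The other region of all 6 lists (chr10:81569970-81572066) lay 4.3 kb upstream of the Tle2 start, between Tle5 and Tle2. Fold enrichment there was 11.3 for RBBP7, 8.58 for RBBP4, 8.15 for MBD3 and 6.25 in the HDAC2-labelled list, each above at least 93.0% of its list, but 4.80 in the CHD4-labelled and 4.40 in the HDAC1-labelled list. Tle5 (also called Aes) encodes a short family member that lacks the WD40 repeats, and a region of 5 lists (chr10:81559148-81560559), without the HDAC1-labelled list, overlapped it. No subunit peak lay in the 473 kb from the Tle2 start to the next peak, of RBBP4, near Zfp873. The 200 kb downstream of Tle2 thus held no peak, as did 17.4% of the 200 kb flanks of all genes. How often a gap as long as 473 kb occurs was not counted. Blacklisted regions had been removed from the lists, per their names, and their part in this gap was not tested.

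The genes whose counts over the 10 lists were most like those of each Tle gene were found by Euclidean distance over log2(count + 1). The 4 accessibility lists are part of this distance, so the genes below were picked in part for their accessibility counts. Tle1 and Tle4 were each among the 3 nearest to the other, at a distance of 0.818. The other genes nearest to Tle1 were Tmem161b (0.772) and Zfhx4 (0.824). For Tle4 they were Zfhx4 (0.690) and Grik3 (0.805). Tle3 was nearest to Rbfox3 (0.650), Cbx2 and Cbx8 (0.665 each, neighbours with the same counts). Tle2 was nearest to Tbc1d22b (0.427), Jarid2 (0.429) and Tmem217 (0.456).

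Among a fixed list of 32 transcription factor genes taken as recruiters of Groucho/TLE, 7 (21.9%) had a KO-higher FTneg region within 200 kb. Of all genes, 9.52% had one. Recruitment was not checked for each of the 32, Hey1, Hey2 and Heyl among them. Hes1, a Notch effector, had 2 (areas 652 and 671). Nkx2-1, a homeodomain factor of the medial ganglionic eminence, had 2 (1090 and 563), of which the larger was nearest to Mbip. Gsx2 (751) and Gsx1 (558), homeodomain factors of ventral progenitors, had 1 each. So did Tcf7l2 (572, inside the gene), a Wnt effector, Nkx6-1 (584) and Pax5 (668, nearest to Zcchc7). None of the 32 had a region of the other 3 accessibility lists. A region of all 6 ChIP lists was in the window of 13 of the 32 (40.6%, against 26.0% of all genes).

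Of 18 other corepressor genes, Tle5 and Tle6 included, 10 (55.6%) had a region of all 6 ChIP lists in their window, against 26.0% of all genes. A KO-higher FTneg region was in the window of 1 of the 18 (5.56%), below the 9.52% of all genes. Those with a region of all 6 lists include Tle5 and Tle6, whose windows share the 2 regions near Tle2. At the promoter itself, 4 of the 15 corepressor genes with a listed promoter had all 6 lists, as did 1 of the 27 recruiting factor genes with one (Hes6) and 1.67% of all genes. The 4 were the CtBP corepressor gene Ctbp1, the CoREST genes Rcor2 and Rcor3, and Tbl1xr1. Neither list of genes was tested, and windows of neighbouring genes overlap.

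The window of 200 kb set which sites count as members. The ChIP peaks closest to its edge were an RBBP7 peak 199.968 kb from Tle4 (fold enrichment 5.23) inside it and an RBBP7 peak 200.007 kb from Tle3 (6.10) outside it.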

How the data were processed

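Each ChIP list gives, as deposited by the authors, a fold enrichment (ratio over input) and −log10 p and −log10 q values at the peak summit. Each accessibility list gives, as deposited by the authors, a score that is the area under −log10 p over a region, of at least 500 per the list names, and the −log10 p at its summit. Alignment to mm10 and calling involved Genrich, MACS2 2.2.7.1, BWA, deepTools and SAMtools 1.10, per the submitters' processing notes, which give them no order. The sources used here do not give their settings, and other thresholds would change which sites are listed. Values were ranked only within a list.

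Python 3.11.15 with pandas 2.3.3 and numpy 2.4.6 was used. Summits (start plus offset) were assigned to windows of 200 kb around RefSeq gene bodies of GRCm38.p6, curated protein-coding genes of the autosomes and X. Overlap was at least 1 bp. ChIP lists were merged by any overlap, and merged regions were placed by midpoint. Counting was tested on simulated data. Named items were the 4 genes, their accessibility regions, regions of all 6 lists, the highest peak per list, promoter peaks, fixed-list genes with an accessibility region and the 3 most alike genes. The 5-list regions inside Tle1, Tle4 and at Tle5 and the corepressor promoters were chosen after their values were seen. Members and gene lists were chosen with earlier results of these data known. No genome sequence was used, so no motif was sought in the accessibility regions. The accessibility region of 1 gene of the corepressor list is counted but not described here. The 3 input libraries were not used here except through the lists.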

Additional observations from a re-analysis of the deposited data

How the results depend on the processing

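With windows of 50 kb the ChIP peaks numbered 152, the regions of all 6 lists 8, the recruiting factor genes with a KO-higher FTneg region 3 and the other corepressor genes 0, against 274, 15, 7 and 1 at 200 kb. At an area of at least 1000 the KO-higher FTneg regions at the Tle genes numbered 2, against 5. Both were at Tle1 and had a subunit peak, and 20.9% of the whole list had such an area. The recruiting factor genes with a region then numbered 1 and the corepressor genes 0. Assigning regions to the nearest gene left 0 corepressor genes. At a −log10 q of at least 10 the peaks numbered 159 and the regions of all 6 lists 6. With the 6 summits within 250 bp of one another 2 such regions were left, and 28 regions held MBD3, RBBP4 and RBBP7 when these 3 lists alone were used, a setting chosen after seeing the data. In these cases the cause was not tested beyond the smaller or larger set each setting admits. Apart from the share by area, no share over all genes or regions was computed at these settings. Whether the contrasts with the background hold there was therefore not tested. The other 18 of 31 alternatives stayed within 1.5 times. No paired analysis was possible because the embryos were combined in each deposited list, and for the same reason no embryo could be left out. Depth is unknown, so absence from a list does not show absence of binding or of a difference in accessibility.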
